A study of Homo sapiens with 10 samples.

Results

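The comparison described here sets WT neural progenitor cells (NPCs) against WT human embryonic kidney (HEK) 293T cells, with no edited cells on either side. It uses 5 of the 10 RNA-seq libraries of the series, namely NPC libraries S3 and S5 and HEK293T libraries S15, S16 and S17, and the 19665 of 24050 gene identifiers that are listed in the count tables of both cell types. The other 5 libraries come from ZNF274 knockout (KO) cells and were left out, except as 1 alternative. HEK293T is an adherent line derived from human fetal kidney that carries adenoviral E1A and E1B and the SV40 large T antigen, and WT here means that the ZNF274 gene was not edited. H1, a human embryonic stem cell line, was the source of the NPCs. Its cells formed embryoid bodies in a commercial medium that induces neural fate. Another medium then held the resulting cultures at the progenitor stage. Such cultures are not sorted and can hold other cell types. The design text says that replicates are independent clones, and no label gives a culture, passage or date, so p-values measure the spread between these libraries. Every NPC library comes from 1 table and every HEK293T library from the other, so that cell type, culture medium and set of libraries cannot be told apart.

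Neural progenitors are dividing cells of the early nervous system that are held in an undifferentiated state by SOX-family transcription factors and Notch signaling and give rise to neurons and glia. HEK293T cells have no single counterpart in the body. The viral oncoproteins they carry bind the tumor suppressors RB and p53, and the line is known for a mixed expression of kidney, adrenal and neuronal genes.

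The shared genes held 20533102 and 18609597 counts in the NPC libraries and 29726051 to 30698719 in the HEK293T libraries, between 99.8 and 99.9% of the counts of each table. Levels are given in CPM, the counts of a gene scaled to a common library size by TMM normalization over the 5 libraries. A count of 3 in a library was taken as the floor of detection, which corresponds to at most 0.154 CPM in NPCs and 0.102 CPM in HEK293T cells and covers counting error only. Where every library of the lower group had 0 counts, the FC is given as a lower bound against that floor. The 2 NPC libraries differed by a median of 0.19 on the log2 scale over the 11040 genes with a mean of at least 5 CPM, and the 3 pairs of HEK293T libraries by 0.14 to 0.24, against 0.73 to 0.80 between the cell types. Counts of every pair of libraries differed by more than sampling noise.

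The labels were first checked against cell type markers. SOX2, a transcription factor that maintains neural progenitors, was at 228 and 219 CPM in NPC libraries S3 and S5 and at 9.03, 10.9 and 8.52 CPM in HEK293T libraries S15, S16 and S17. NES, which encodes the intermediate filament nestin, was at 2276 and 2996 CPM in NPCs and 14.3, 22 and 14.3 CPM in HEK293T cells. SOX1 had 0 counts in every HEK293T library and was at 7.33 and 50.6 CPM in the NPC libraries. FABP7, a fatty acid binding protein of radial glia, also had 0 counts there and was at 181 and 388 CPM in NPCs. All 4 genes separated the groups without overlap, as did 73.3% of all genes tested. The 9 neural progenitor markers together summed to 3549 to 4701 CPM in the NPC libraries and 226 to 251 CPM in the HEK293T libraries, and 7 of them were called higher in NPCs. HES5, a Notch target of progenitors, was near the floor in both, at 0.286 and 0.205 against 0.0669, 0.102 and 0.135 CPM. In the kidney marker set, PAX2 was at 0.762 and 0.358 against 0.201, 0.477 and 0.438 CPM and PAX8 was at 0.524 and 0.512 against 0, 0 and 0 CPM, so that HEK293T cells held neither of these defining kidney factors above 1 CPM. EYA1, the other member listed in both tables, was at 2 and 2.51 against 2.17, 12.1 and 5.29 CPM and was not called. WT1, a factor of the nephron and its precursors, is listed in the HEK293T table alone, at 3.25, 4.56 and 3.67 CPM. The adrenal markers NR5A1 and STAR summed to 0.921 to 1.29 CPM in the NPC libraries and 0 to 0.236 CPM in the HEK293T libraries.

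Markers of other cell types were also present in the NPC libraries. COL1A1, COL3A1, LUM and PDGFRB of the mesenchymal set summed to 645 to 808 CPM in the NPC libraries and 21 to 28.9 CPM in the HEK293T libraries. All 4 were called higher in NPCs. DCN, the other marker of the set, is listed in the NPC table alone and was at or below the floor there, at 0.0952 and 0 CPM. The neuronal set summed to 80.7 to 87.3 CPM in the NPC libraries and 6.49 to 8.51 CPM in the HEK293T libraries. GFAP, AQP4, SOX10 and MBP of the astrocyte and oligodendrocyte set summed to 1.71 to 2.61 CPM in the NPC libraries and 0.0674 to 0.885 CPM in the HEK293T libraries. OLIG2, the other marker of that set, is listed in the HEK293T table alone, at 9.03, 12 and 8.82 CPM, and was not compared. KRT8 and KRT19, keratins of simple epithelia, were higher in NPCs, while CDH1, the cadherin of epithelial junctions, was higher in HEK293T cells at 0.0476 and 0 against 7.8, 5.69 and 5.35 CPM. The pluripotency factors NANOG and ZFP42 reached at most 0.238 and 1.09 CPM in an NPC library. POU5F1, TDGF1 and PRDM14 are listed in the HEK293T table alone, where none passed 0.102 CPM. In bulk RNA, fewer cells of a type and less RNA per cell cannot be told apart.

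**Figure D1:**
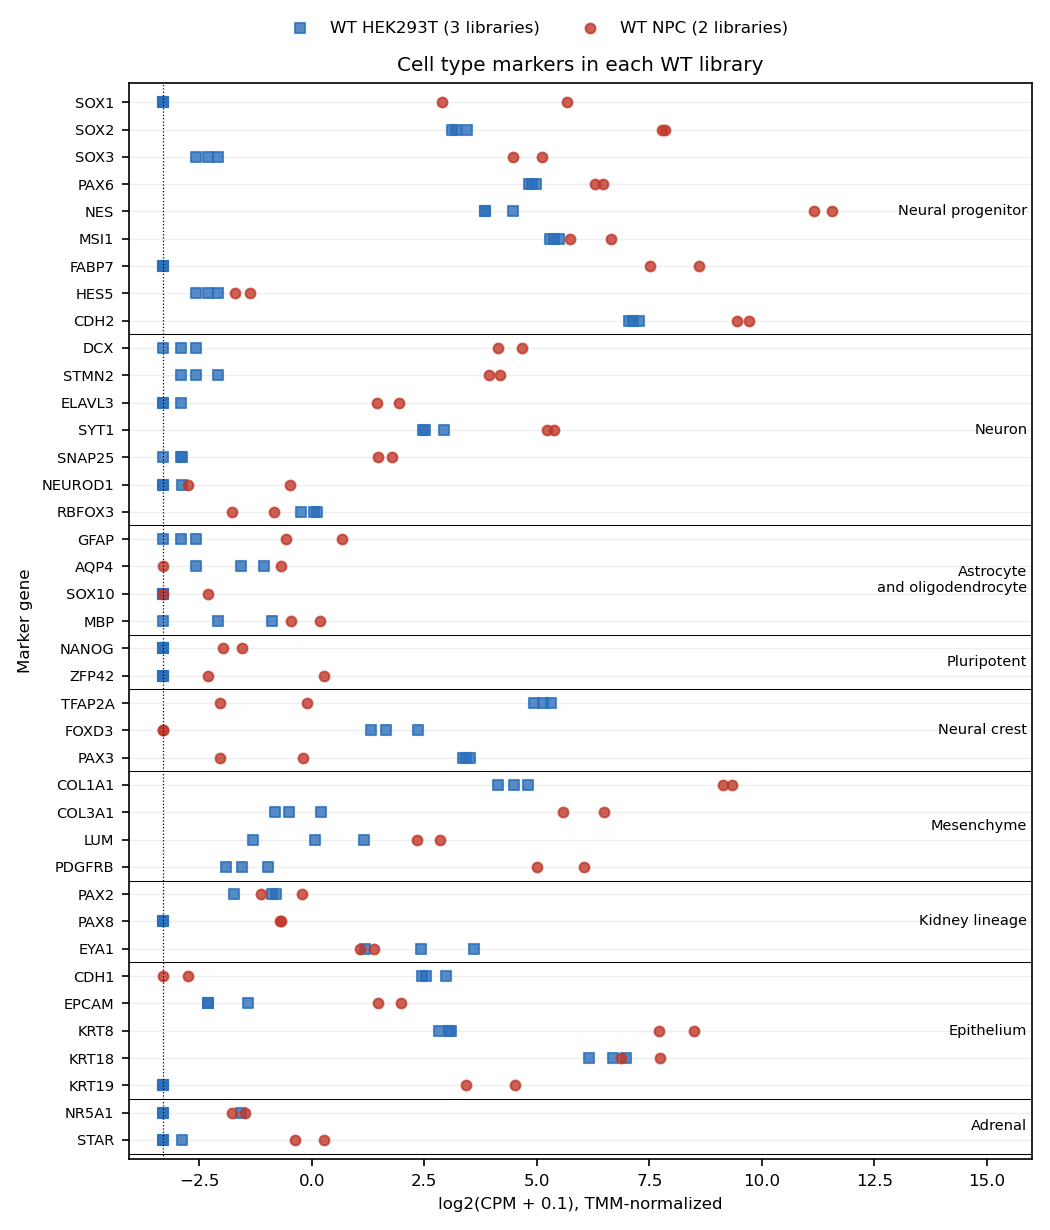
Level of each cell type marker listed in both tables, as log2(CPM + 0.1) on the horizontal axis, in the 2 WT NPC libraries (red circles) and the 3 WT HEK293T libraries (blue squares). The dotted line marks 0 counts, and the neural progenitor and mesenchymal markers and all neuronal ones but RBFOX3 sit to the right in NPCs, whereas TFAP2A, FOXD3, PAX3 and CDH1 sit to the right in HEK293T cells.

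Of the 19088 genes tested, 4789 were higher in NPCs, which is 25.1% of the genes, and 2952 were lower, 15.5% (quasi-likelihood test in edgeR, Benjamini-Hochberg-adjusted P value below 0.05 and FC above 2). Together these were 40.6% of the genes, and the shares 25.1% and 15.5% are the background against which each list below should be read. The median log2 FC of all genes was 0.13. Among the 4789 genes higher in NPCs, 1009 had 0 counts in every HEK293T library, and among the 2952 lower genes 86 had 0 counts in both NPC libraries. Of 14496 protein-coding genes 3863 were higher and 2473 lower, and of 2138 lncRNA genes 524 were higher and 184 lower.

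The largest differences among genes above the floor in every library were led by TMSB4X (hg19, chromosome X, 12993229 to 12995346), which encodes the actin-sequestering peptide thymosin beta 4. It was at 2331 and 1889.7 CPM in NPCs and at 0.301, 0.375 and 0.37 CPM in HEK293T cells (log2 FC 12.54 ± 0.19 SE, adjusted p = 1.18e-09). MAP2, a microtubule-associated protein of neuronal dendrites, followed at 998 and 1089 against 0.335, 0.409 and 0.135 CPM, and TAGLN, the actin-binding protein transgelin, at 819 and 1069 against 1.24, 0.681 and 0.64 CPM. The same rule named WNT8B, BAALC, CSRP1, DUSP6 and MAP6, with log2 FC between 8.85 and 9.65.

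Genes that were abundant in NPCs and at or below the floor in HEK293T cells were led by COL1A2, a chain of type I collagen, at 1324 and 589.7 CPM against 0 counts in all 3 HEK293T libraries, at least 9365-fold higher. MEST, a paternally expressed imprinted gene, was at 714 and 491 CPM and CDH6, a type II cadherin, at 610.1 and 594 CPM, both against 0 counts, at least 5896-fold and 5890.0-fold higher. CRABP1, a cytoplasmic retinoic acid binding protein, and COL11A1 were at least 3299-fold and 3274-fold higher, and FABP7 at least 2784-fold. COL2A1 and the metalloprotease gene ADAMTS12 had 1 or 2 counts in the HEK293T group, and the ratio of summed CPM was 15326 (95% counting interval 4242 to 126560.0) for COL2A1 and 31913 (95% counting interval 5727 to 1260600.0) for ADAMTS12.

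In the other direction, HOXD13 (hg19, chromosome 2, 176957449 to 176960672), a homeobox gene of the posterior body, had 0 counts in both NPC libraries and was at 207, 236 and 215 CPM in HEK293T cells, at least 1428-fold lower in NPCs. CITED1, a transcriptional coactivator known from the nephron progenitors of the fetal kidney, was at 0.809 and 0.921 against 179, 215 and 228 CPM (log2 FC -7.90 ± 0.22, adjusted p = 2.31e-08). POU4F1, a POU-domain factor of sensory neurons, was at 0.333 and 0.205 against 53.1, 66.1 and 49.4 CPM, and PPARG, the nuclear receptor of fat cells, at 0.286 and 0.307 against 39.4, 49.7 and 46.1 CPM. NRN1, FOXF2, EN2, CDKN2A and UAP1L1 were lower in NPCs with log2 FC from -7.11 to -6.73. The T-box genes TBX2 and TBX18, the homeobox gene DLX2 and the genes MATK, LPAR3, PLD6 and TMOD1 were at 15 to 53 CPM in HEK293T libraries and at or below the floor in NPCs.

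**Figure D2:**
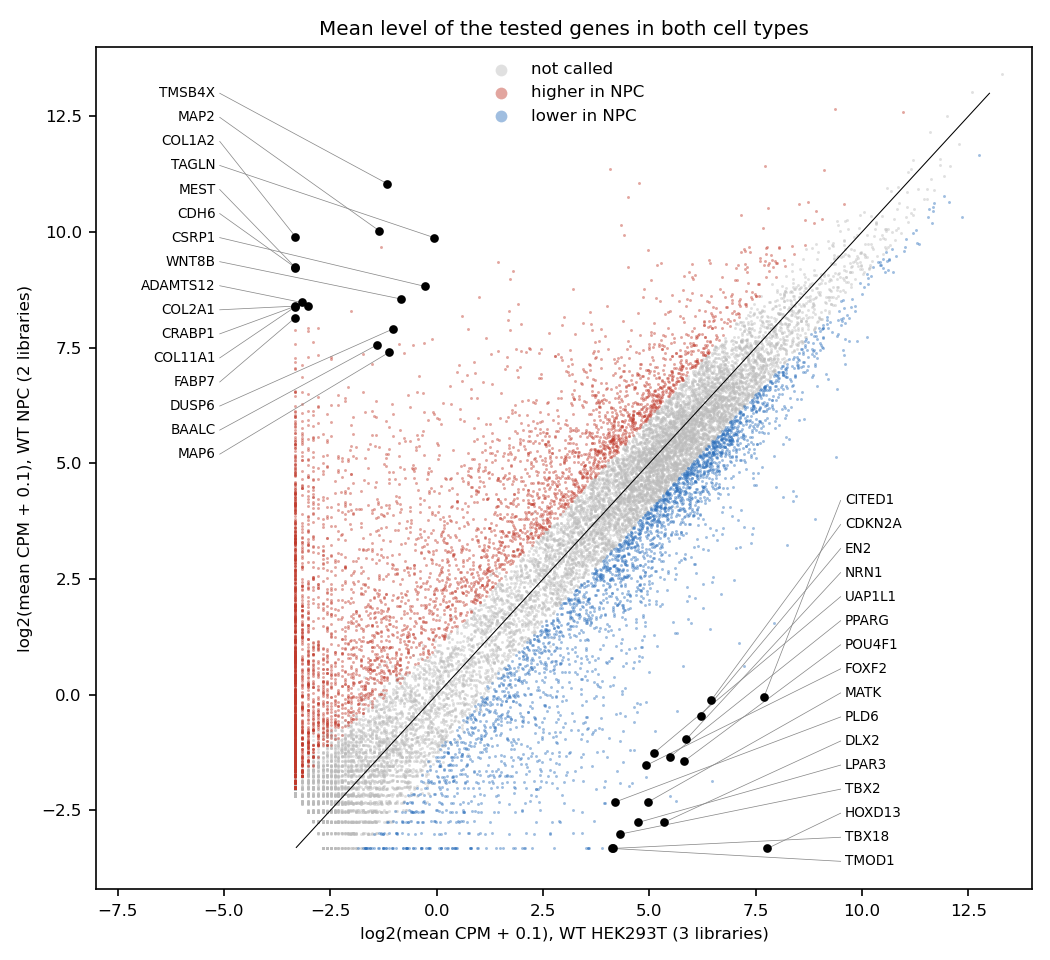
Mean level of each tested gene as log2(mean CPM + 0.1) in WT HEK293T cells (horizontal axis, 3 libraries) and WT NPCs (vertical axis, 2 libraries), with genes called higher (red) or lower (blue) in NPCs and the diagonal of equal levels. Labelled points are the 16 genes named in each direction by the fixed rule, such as TMSB4X and COL1A2 above the diagonal and CITED1 and HOXD13 below it.

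Transcription factors of the neural plate and forebrain were mostly higher in NPCs. Of this list, 25 of 34 tested members were higher in NPCs and 3 lower, with a median log2 FC of 3.34 (2.82 with undetected genes at their bounds) against 0.13 for all genes. The direction of 6 members was fixed by the filter, since they had 0 counts in every HEK293T library. ZIC1, a zinc finger factor of the dorsal neural tube, was at 171 and 208 against 0.502, 0.783 and 0.471 CPM (log2 FC 8.33 ± 0.22, adjusted p = 1.49e-08), and OTX1, a homeobox factor of forebrain and midbrain, at 103 and 81.6 against 2.81, 2.79 and 2.66 CPM (log2 FC 5.06 ± 0.17). NR2F1 and NR2F2, orphan nuclear receptors that pattern the cortex, were present in both cell types and 5.22-fold and 2.71-fold higher in NPCs. IRX3, a homeobox factor, went the other way at 0.0952 and 0.307 against 8.4, 8.21 and 7.91 CPM (log2 FC -5.33 ± 0.46, adjusted p = 8.93e-06), as did MEIS2 at 12 and 12.4 against 30.2, 33.6 and 28.7 CPM. ZIC2 was abundant in both, at 81.2 and 79 against 57.9, 55.9 and 49.7 CPM, and was not called.

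Radial glia are the progenitors that line the developing brain and guide migrating neurons. In their list, 24 of 27 tested members were higher in NPCs and 0 lower, with a median log2 FC of 3.34. VIM, the intermediate filament vimentin, was at 7057 and 5804 CPM in NPCs and 625, 708 and 637 CPM in HEK293T cells, 9.79-fold higher (adjusted p = 4.89e-08). CDH2, the neural cadherin, was at 692 and 835 against 154, 140.0 and 132 CPM, and VCAN, a chondroitin sulfate proteoglycan of the matrix, at 561 and 501 against 37.8, 83.8 and 45.8 CPM. NES was 156-fold higher. SLC1A3, a glutamate transporter of glia, was at 59 and 110.2 against 74.8, 155 and 145 CPM and was not called. VIM and VCAN are also expressed by mesenchymal cells. The 19 tested genes of a mesenchymal list summed to 5475 ± 587 CPM in NPCs and 123 ± 25.5 CPM in HEK293T cells (SD over 2 and 3 libraries), and the part of such cells in these values was not tested.

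Genes of neurons were mostly higher in NPCs. Of the neuronal list, 23 of 29 tested members were higher in NPCs and 3 lower, with summed levels of 2388 ± 191 CPM in NPCs and 72.6 ± 1.9 CPM in HEK293T cells. NEFM, a neurofilament subunit, was at 224 and 404 against 0.134, 0.238 and 0.0674 CPM (log2 FC 11.02 ± 0.38, adjusted p = 3.86e-08). DPYSL3, which relays axon guidance signals to the cytoskeleton, was at 218 and 362 against 1.24, 1.29 and 1.72 CPM. The same family's CRMP1 was 16.5-fold higher. GAP43, a growth cone protein, was at 233 and 123 against 1.34, 6.91 and 2.46 CPM. ISL1, a LIM homeobox factor of motor and sensory neurons, had 0 counts in NPCs and was at 8.7, 12.7 and 12.8 CPM in HEK293T cells, at least 74.2-fold lower in NPCs. GAD1, which makes GABA, and EOMES, a T-box factor of intermediate progenitors, were also lower in NPCs, by a log2 FC of -5.29 and -3.11. Genes of mature glia were low. In the glial list 4 of 9 tested members were called higher in NPCs and none lower, and CSPG4, one of them, was at 13.8 and 10.5 against 1.24, 1.43 and 0.404 CPM. GFAP, the astrocyte filament, reached 1.48 CPM at most. A further 2 genes of the glial list, OLIG2 among them, are listed in the HEK293T table alone and were not compared.

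Receptors and channels of nerve cells were more often higher than lower in NPCs. Among glutamate, GABA and glycine receptor genes, 20 of 31 tested members were higher in NPCs and 3 lower. Of the 36 members listed in both tables these 31 had enough counts to be tested. Among them 12 had 0 counts in every HEK293T library, so that they passed the filter only through the NPC libraries, which fixed their direction. GRIA1, an AMPA receptor subunit, was at 82.3 and 208 CPM against 0 counts in HEK293T cells, at least 1421-fold higher, and GRM3 and the NMDA receptor subunit GRIN2B were at least 206-fold and 157-fold higher. GRIK5 was at 39.1 and 30.4 against 0.268, 0.102 and 0.269 CPM, and GABRA3 was not called at 8.42 and 7.78 against 7.29, 9.4 and 7.58 CPM. GRIN2D and GRID1 were lower in NPCs by a log2 FC of -1.87 and -3.83. Of potassium, sodium and calcium channel genes, 48 of 95 tested members were higher in NPCs and 19 lower. Here 15 tested members had 0 counts in every HEK293T library and 1 had 0 counts in both NPC libraries, so that the filter fixed their direction. CACNG4, an auxiliary subunit of AMPA receptors, was at 64.5 and 97.5 against 0.201, 0.204 and 0.404 CPM. KCNJ8 and KCNC4, potassium channel genes, were higher in HEK293T cells at 5.57 and 5.78 against 26.1, 29.7 and 27.6 CPM and at 1 and 1.07 against 24.5, 10.5 and 15.1 CPM. Axon guidance genes showed 42 of 68 members higher and 9 lower. SEMA3A, a secreted repellent of growth cones, was at 179 and 181 against 4.52, 4.39 and 4.28 CPM (log2 FC 5.35 ± 0.14, adjusted p = 1.23e-08), while ROBO1, the receptor of SLIT proteins, was at 33.9 and 60.0 against 99.2, 116 and 108 CPM. Without NPC library S3, ROBO1 was no longer called.

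In the pluripotency list 6 of 10 tested members were higher in NPCs and 1 lower, and 3 had 0 counts in every HEK293T library, which fixed their direction. A further 7 genes of the list, POU5F1 among them, have no NPC value because they are listed in the HEK293T table alone. DPPA4, a chromatin protein of pluripotent cells, was at 74.5 and 76.1 against 0.134, 0 and 0 CPM, and LIN28A, an RNA-binding protein that blocks let-7 maturation, at 64.1 and 84.7 against 0.0335, 0.102 and 0 CPM. TERT, the telomerase reverse transcriptase, was lower in NPCs at 0.19 and 0.205 against 1.51, 1.09 and 1.21 CPM. In the oncofetal list 8 of 12 members were higher and 0 lower. HMGA2, a chromatin architectural protein of embryonic cells, was at 1502 and 1136 against 119, 164 and 143 CPM (log2 FC 3.22 ± 0.17, adjusted p = 3.9e-07), and IGF2BP3 at 344 and 317 against 97.5, 104 and 84.8 CPM. IGF2BP1, which binds many fetal mRNAs, was not called, at 469.8 and 615 against 557, 494 and 530.4 CPM (log2 FC 0.04 ± 0.13).

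In the mesenchymal list 16 of 19 tested members were higher in NPCs and 1 lower, with a median log2 FC of 4.73 (4.26 at the bounds). SPARC, a collagen-binding glycoprotein, was at 1820.5 and 1627 against 15, 35 and 17.9 CPM (log2 FC 6.25 ± 0.33, adjusted p = 4.36e-07). COL1A1 was at 647 and 558 against 28, 17.6 and 22.5 CPM and FN1, the matrix protein fibronectin, at 474 and 399 against 21.3, 38.3 and 27.6 CPM. TWIST2, a mesenchymal bHLH factor, had 0 counts in NPCs and was at 2.21, 0.851 and 0.741 CPM in HEK293T cells. Of the collagen genes, 25 of 39 tested members were higher in NPCs and 2 lower, with 1 lower without NPC library S3. COL5A2 was at 927 and 375 against 2.84, 2.96 and 2.02 CPM, and COL1A2 and COL5A2 were both more than 2-fold higher in NPC library S3 than in S5. COL6A1, a chain of type VI collagen, was not called at 62.4 and 75.9 against 61.1, 46 and 49.3 CPM. Integrin and laminin genes showed 19 of 32 higher and 3 lower. ITGB1, the beta chain shared by most matrix receptors, was at 387 and 403 against 90.8, 88.9 and 80.5 CPM and LAMA1, a laminin chain of embryonic basement membranes, at 220.2 and 221 against 39, 42 and 38.6 CPM. LAMC3 was lower in NPCs at 1.14 and 1.95 against 16, 15 and 16.2 CPM.

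Cadherins hold cells of a kind together, and clustered protocadherins are adhesion proteins through which neurons tell their own branches from those of others. Of the classical cadherin genes, 14 of 19 tested members were higher in NPCs and 3 lower. CDH11 was at 55.1 and 53.7 against 0, 0.0341 and 0 CPM and CDH4 at 94.3 and 85 against 1, 0.17 and 0.404 CPM, and CDH12 was higher in HEK293T cells at 0.333 and 0 against 6.59, 8.11 and 4.58 CPM. The clustered protocadherin genes lie in 3 tandem arrays on chromosome 5. In the alpha array 11 of 12 tested genes were higher in NPCs, in the beta array 13 of 14 and in the gamma array 13 of 20. None was lower, and the background was 25.1% higher. Of 16 alpha genes listed in both tables, 12 had enough counts to be tested, and 10 of these had 0 counts in every HEK293T library. These 10 passed the filter only through the NPC libraries. The filter thus fixed their direction, and the alpha share cannot be set against 25.1%. The tested genes with 0 counts in every HEK293T library numbered 2 in the beta array and 1 in the gamma array. Without HEK293T library S15, or at an adjusted P value below 0.01, the beta count was 8. Summed over each array, the levels were 38 ± 6.52 CPM in NPCs and 0.0339 ± 0.0341 CPM in HEK293T cells for alpha, 142 ± 2.31 CPM in NPCs and 1.2 ± 0.353 CPM in HEK293T cells for beta and 120.3 ± 4.31 CPM in NPCs and 4.45 ± 0.697 CPM in HEK293T cells for gamma. All 12 alpha genes tested were at or below the floor in every HEK293T library, as were 7 beta and 10 gamma genes.

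Most array members named here had like levels in both NPC libraries, and a few did not. PCDHB5 was at 85.8 and 84.9 CPM in libraries S3 and S5 and PCDHB2 at 28.4 and 29.3 CPM, so that the libraries were close. PCDHA6 was at 12.5 and 0.102 CPM, and PCDHGA10 at 0.428 and 31 CPM, so that most of each gene's signal came from 1 library. PCDHA4 was at 8 and 9.47 CPM against 0 counts in HEK293T cells, at least 85.5-fold higher (adjusted p = 5.48e-06), and PCDHA12 at 6.19 and 7.37 CPM, at least 66.4-fold higher. PCDHGB6 was at 21.6 and 30.2 against 0, 0.0681 and 0 CPM, and PCDHGC3, an isoform of the C type, at 29.6 and 17 against 0.703, 0.307 and 0.303 CPM. PCDHGA11 was the one array member near 2 CPM in HEK293T cells, at 11.5 and 0.256 against 2.34, 2.55 and 1.92 CPM, and was not called. Without NPC library S3 it was called lower in NPCs with a log2 FC of -3.11, and without library S5 PCDHGA10 was no longer called. Genes of the alpha array share 3′ exons, as do genes of the gamma array, and reads in shared exons cannot be assigned to 1 gene by unique counting.

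**Figure D3:**
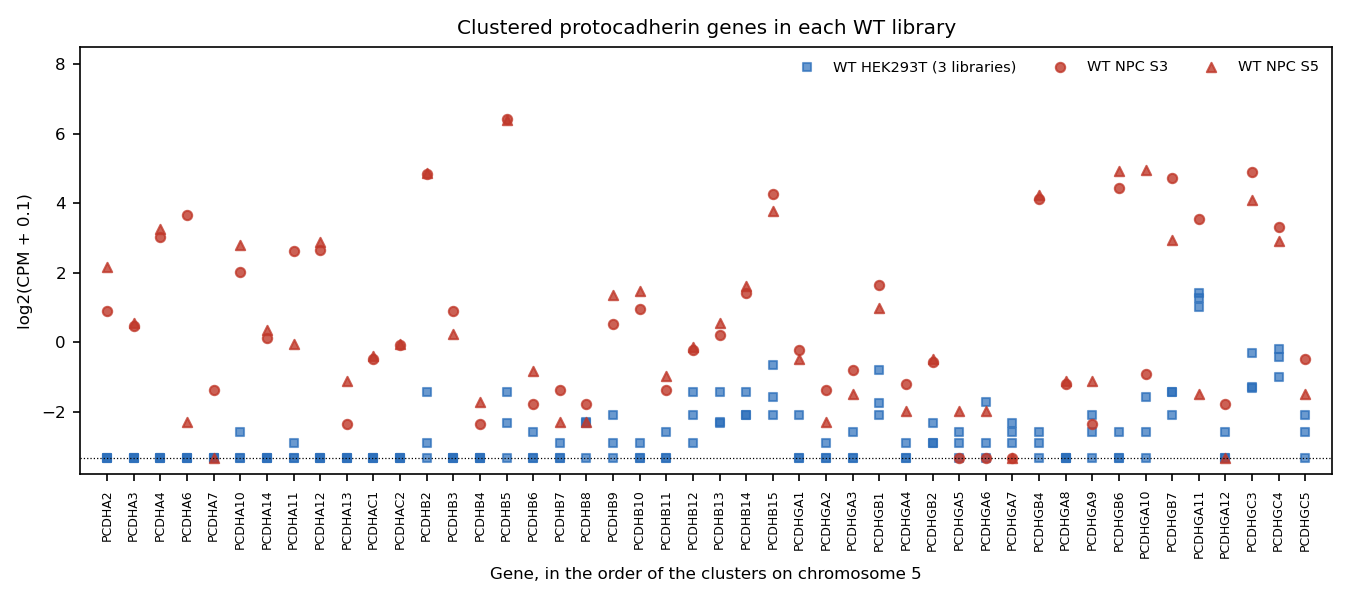
Level of each tested clustered protocadherin gene, as log2(CPM + 0.1), in the order of the alpha, beta and gamma arrays along chromosome 5, in NPC libraries S3 (red circles) and S5 (red triangles) and in the 3 HEK293T libraries (blue squares). The dotted line marks 0 counts, and PCDHA6, PCDHGA10 and PCDHGA11 are examples where the NPC libraries lie far apart.

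Promoters of these genes are shown because neighbors in an array share short stretches. The sequences are the 250 bases before the RefSeq start of the gene on GRCh38.p14, in lower case, with the shared letters in capitals. The letters ATGTCGCT or their reverse complement, which were picked because no other 8 letters occur in more alpha promoters, stand in 9 of 13 alpha promoters in the RefSeq table and in 0.182% of all 35116 promoters. The letters GTGGCGCT, chosen in the same way, stand in 11 of 12 beta promoters and in 0.94% of all promoters. The pair called higher with the highest CPM in NPCs, not corrected for length, was chosen to be shown for each array, located at chr5:140806818-140807067, plus strand for PCDHA4, chr5:140875058-140875307, plus strand for PCDHA12, chr5:141134956-141135205, plus strand for PCDHB5 and chr5:141094365-141094614, plus strand for PCDHB2.
PCDHA4: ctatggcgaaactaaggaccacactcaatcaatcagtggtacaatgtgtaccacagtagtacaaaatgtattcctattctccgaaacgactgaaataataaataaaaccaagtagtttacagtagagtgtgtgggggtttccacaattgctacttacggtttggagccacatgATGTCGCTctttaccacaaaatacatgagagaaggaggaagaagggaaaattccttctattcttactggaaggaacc
PCDHA12: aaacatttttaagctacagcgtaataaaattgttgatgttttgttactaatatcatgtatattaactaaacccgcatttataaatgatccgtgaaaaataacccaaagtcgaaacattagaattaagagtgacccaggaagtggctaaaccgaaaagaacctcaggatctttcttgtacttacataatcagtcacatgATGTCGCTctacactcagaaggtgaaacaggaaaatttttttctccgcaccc
PCDHB5: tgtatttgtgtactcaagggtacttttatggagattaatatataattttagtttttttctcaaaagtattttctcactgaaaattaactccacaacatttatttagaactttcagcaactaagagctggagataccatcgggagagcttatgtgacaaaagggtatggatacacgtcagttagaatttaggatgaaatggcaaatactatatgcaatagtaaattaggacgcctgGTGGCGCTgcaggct
PCDHB2: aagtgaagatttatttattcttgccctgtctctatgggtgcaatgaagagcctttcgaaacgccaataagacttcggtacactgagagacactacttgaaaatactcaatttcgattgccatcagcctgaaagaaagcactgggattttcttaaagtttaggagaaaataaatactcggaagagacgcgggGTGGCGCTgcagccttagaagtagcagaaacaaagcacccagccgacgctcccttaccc
The letters ATGTCGCT were also found before PCDHA7, which was not called, and before PCDHA1, PCDHA5 and PCDHA8, which were not tested. Of the 9 alpha genes with these letters, 6 were tested and 5 were higher in NPCs. A match describes these letters and does not show that a factor binds there.

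HOX genes, which set position along the body axis, were expressed in HEK293T cells. Only 4 of them are listed in both tables, and all 4 were lower in NPCs. Of these 4, 3 had 0 counts in both NPC libraries and passed the filter only through the HEK293T libraries. The filter thus fixed their direction, and the HOX share cannot be set against the 15.5% of all genes. Apart from HOXD13, HOXC13 was at 13.9, 9.91 and 11 CPM in HEK293T cells against 0 counts in NPCs, at least 75.6-fold lower in NPCs. HOXB2 was at 0 and 0.205 against 4.68, 5.18 and 3.57 CPM, and HOXB5 was at 3.18, 2.93 and 2.05 CPM against 0 counts. A further 31 HOX genes are listed in the HEK293T table alone and were not compared. In the HEK293T libraries HOXB9 was at 187, 167 and 155 CPM, HOXA9 at 41.4, 34 and 35.3 CPM, HOXA10 at 42.1, 32.7 and 29.4 CPM and HOXB13 at 23.5, 22.1 and 28.7 CPM, chosen here after their values were seen. All 4 HOX clusters had members above 10 CPM there.

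Other homeobox, forkhead, SOX, PAX, T-box and GATA genes that are listed in both tables had 34 of 104 tested members higher in NPCs (32.7%) and 35 lower (33.7%), against 25.1% and 15.5% of all genes, and a median log2 FC of 0.03. A further 38 are listed in the HEK293T table alone and 3 in the NPC table alone, and these were not compared. SOX11, a factor of immature neurons, was at 127 and 189 against 0.0669, 0 and 0 CPM. FOXC1, a forkhead factor of mesoderm, was higher in HEK293T cells at 2.33 and 0.563 against 155, 162 and 133 CPM (log2 FC -6.67 ± 0.40, adjusted p = 9.51e-07), as was TBX3 at 0.238 and 0 against 43.2, 49.9 and 40.7 CPM. FOXM1, which drives mitotic genes, was not called, at 243 and 259 against 246, 228 and 252 CPM (log2 FC 0.05 ± 0.11). GATA6, a factor of endoderm and heart, was at 0 and 0.307 against 20.7, 24.4 and 24.1 CPM.

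Factors of kidney development were split between the cell types. In the kidney list 6 of 15 tested members were higher in NPCs and 5 lower, and 4 had 0 counts in every HEK293T library, which fixed their direction. SIX2, a homeobox factor of nephron progenitors, was at 0.619 and 0.0512 against 22.9, 24.5 and 22.4 CPM, higher in HEK293T cells (adjusted p = 7.41e-06). BMP7 was higher in NPCs at 305 and 250.3 against 110.0, 90.6 and 108 CPM. CDH6, given above, was first named kidney cadherin and is also expressed in neural tissue. SALL1 was lower in NPCs at 5.33 and 21.6 against 27.5, 36.8 and 33.4 CPM, a call lost without HEK293T library S16 or S17 or NPC library S3. Neural crest factors were more often higher in HEK293T cells, with 5 of 13 lower and 3 higher in NPCs. TFAP2A, a factor of the neural plate border, was at 0.143 and 0.819 against 39.6, 35.2 and 30.2 CPM (log2 FC -6.20 ± 0.45, adjusted p = 2.85e-06), PAX3 at 0.143 and 0.768 against 11.2, 10.1 and 10.5 CPM, and FOXD3 had 0 counts in NPCs against 5.02, 2.38 and 3.03 CPM. ETS1 was higher in NPCs at 76.7 and 46.7 against 0.703, 0.613 and 1.52 CPM.

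Epithelial genes did not move together. Of that list, 12 of 25 tested members were higher in NPCs and 5 lower, and the summed levels were 682 ± 200.2 CPM in NPCs and 682 ± 46.9 CPM in HEK293T cells. KRT8 was at 360.3 and 211 against 8.43, 6.98 and 8.18 CPM (log2 FC 5.18 ± 0.23, adjusted p = 1.53e-07), and CLDN6, a tight junction protein of embryonic epithelia, at 64.4 and 64.6 against 0.201, 0.443 and 0.168 CPM. DSP and DSG2, proteins of desmosomes, were higher in HEK293T cells at 19.8 and 22.5 against 349, 314 and 329 CPM and at 75.3 and 64.8 against 212, 249.5 and 185 CPM. KRT18, the partner of KRT8, was at 213 and 117 against 127, 71.6 and 103 CPM and was not called. In the list of endoderm and mesoderm genes, 8 of 13 tested members were higher in NPCs and 4 lower. The filter fixed the direction of 4 members that had 0 counts in every HEK293T library. KDR and TEK, receptors of blood vessel endothelium, were at 22.5 and 111 against 0.335, 0.477 and 0.37 CPM and at 24.5 and 55.3 against 0, 0 and 0 CPM, and AFP, the fetal serum protein alpha-fetoprotein, at 8.9 and 10.9 CPM in NPCs against 0 counts. The part of endothelial or endodermal cells in these values was not tested.

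Notch signaling, in which ligands of one cell activate receptors of its neighbor, differed in its parts. Of the list 12 of 30 tested members were higher in NPCs and 9 lower. Among receptors, NOTCH1 was at 43.1 and 55.4 against 15.5, 11.2 and 8.92 CPM and NOTCH3 at 177 and 197 against 40.0, 36.3 and 41.9 CPM, both higher in NPCs, and NOTCH2 was not called at 268 and 216 against 163, 166 and 160.2 CPM. Of the 5 ligands of the DLL and JAG families in the list, JAG1 was higher in NPCs and DLL1, DLL3, DLL4 and JAG2 were lower. JAG1 was at 139 and 192 against 2.38, 2.55 and 2.09 CPM (log2 FC 6.14 ± 0.20, adjusted p = 3.15e-08), JAG2 at 1.09 and 0.921 against 13.4, 6.47 and 6.7 CPM and DLL3 at 0.904 and 1.38 against 6.22, 5.59 and 4.65 CPM. Target genes went in opposite directions. HES1 was higher in NPCs at 55.1 and 55.8 against 25, 18.9 and 21.3 CPM, whereas HEY1 was at 10.9 and 7.73 against 263, 334 and 306 CPM (log2 FC -5.01 ± 0.21, adjusted p = 9.7e-08) and HEY2 at 0.524 and 0.102 against 9.84, 11 and 11.5 CPM, both higher in HEK293T cells, as was the feedback inhibitor NRARP at 10.8 and 7.27 against 31.9, 37.1 and 31 CPM.

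In the WNT pathway 25 of 48 tested members were higher in NPCs and 6 lower. WNT8B, a ligand of the dorsal forebrain and hippocampus, was at 374 and 376 against 0.268, 0.681 and 0.438 CPM (log2 FC 9.65 ± 0.24, adjusted p = 1.21e-08). SFRP2, a secreted inhibitor that binds WNT ligands, was at 214 and 270.3 against 0.0335, 0.0341 and 0 CPM, a ratio of 10715 (95% counting interval 2965 to 88488). RSPO2 and RSPO3, secreted amplifiers of WNT signaling, were at 285 and 42 against 0.0335, 0.102 and 0 CPM and at 121 and 33.4 against 0, 0.0681 and 0.168 CPM, and in both cases library S3 was over 3 times library S5. FZD3, a receptor, was at 152 and 205 against 22, 22.7 and 21.9 CPM. RNF43, a ubiquitin ligase that removes receptors, was higher in HEK293T cells at 1 and 1.54 against 15.5, 12 and 14.1 CPM, and CTNNB1, which encodes the signal carrier beta-catenin, was not called at 974 and 1163 against 818, 843 and 776 CPM.

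Of BMP and TGF-beta pathway genes 18 of 40 tested members were higher in NPCs and 6 lower. LTBP1, which stores latent TGF-beta in the matrix, was at 208 and 264 against 23.8, 25.8 and 22 CPM and the receptor TGFBR1 at 151 and 216 against 54.4, 65.4 and 58 CPM, both higher in NPCs along with BMP7. Targets of BMP signaling went in both directions. ID1 and ID3 were higher in NPCs at 110.1 and 62.2 against 19.4, 7.39 and 12.3 CPM and at 88.3 and 74.4 against 44.1, 20.5 and 36.2 CPM, and ID2 was lower at 64.3 and 35.6 against 106, 104 and 109.7 CPM, a call lost without NPC library S5, while ID4 was not called at 94.4 and 80.3 against 103, 105 and 104 CPM. The feedback inhibitors SMAD6 and SMAD7 were lower in NPCs at 3.57 and 1.69 against 8.63, 5.55 and 5.93 CPM and at 9.28 and 5.27 against 18.2, 10.7 and 15.9 CPM. Both calls were lost without NPC library S5, and that of SMAD7 under 6 other alternatives. The coreceptor TGFBR3 and the ligand BMP6 were higher in HEK293T cells at 7.85 and 8.24 against 41.8, 46.2 and 44.6 CPM and at 5.47 and 3.17 against 17.4, 16.4 and 15.3 CPM. TGFB1 was at 2.62 and 4.61 against 40.9, 8.79 and 12.8 CPM, with library S15 over 3 times the other HEK293T libraries, and its call was lost without NPC library S3 and with voom. Without NPC library S5 the list had 3 lower members. SMAD5, a carrier of the BMP signal, was not called at 105 and 104 against 75.4, 110.2 and 95.6 CPM.

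For sonic hedgehog, FGF and retinoic acid genes 25 of 45 tested members were higher in NPCs and 5 lower. DUSP6 and ETV4, which are switched on by FGF through the ERK kinases, were at 205 and 275 against 0.502, 0.307 and 0.37 CPM and at 152 and 163 against 5.82, 1.16 and 2.22 CPM (adjusted p = 1.21e-08 and 7.41e-06), and the receptor FGFR1 was at 172 and 273 against 71.1, 76.9 and 78.6 CPM. The carrier protein FGFBP3 was at 185 and 367 against 5.02, 1.91 and 2.32 CPM. In the retinoic acid branch CRABP1 was higher in NPCs, as given above. ALDH1A2, which makes retinoic acid, was at 0.286 and 0.205 against 14.7, 8.55 and 14.1 CPM, RARB, a receptor and target gene, at 0.428 and 0.512 against 7.06, 8.62 and 6.43 CPM, and CYP26A1 and CYP26B1, which break retinoic acid down, at 0.19 and 0.512 against 4.82, 3.07 and 5.52 CPM and at 0.286 and 0.102 against 3.85, 2.52 and 2.49 CPM. These 4 were lower in NPCs. Without NPC library S3, 8 members of the list were lower.

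Imprinted genes, expressed from 1 parental copy, were more often higher than lower in NPCs. Of the list 14 of 26 tested members were higher in NPCs and 2 lower. Among the tested members 7 had 0 counts in every HEK293T library and 1 had 0 counts in both NPC libraries. PEG10, a gene derived from a retrotransposon, was at 1029.9 and 602 against 0.335, 0.511 and 0.0674 CPM (log2 FC 11.37 ± 0.41, adjusted p = 4.64e-08). NDN, of the Prader-Willi region, was at 159.9 and 107 CPM against 0 counts in HEK293T cells, at least 1307-fold higher. MEST, given above, was likewise undetected in HEK293T cells. ZDBF2 was lower in NPCs at 16.6 and 11.7 against 28, 34.8 and 23.8 CPM, close to the FC threshold, and its call was lost without NPC library S5 or HEK293T library S16 and under 4 other alternatives. H19, a maternally expressed lncRNA, had 0 counts in NPCs and 0.335, 0.17 and 0.37 CPM in HEK293T cells, and its call was lost without either NPC library, so that 1 member of the list was lower without S3 and 0 without S5. GNAS was abundant in both at 1088 and 886 against 1460.4, 1484 and 1323 CPM and was not called.

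Interferon-response and innate sensing genes were more often higher in NPCs. Of the list 21 of 35 tested members were higher in NPCs and 2 lower, with a median log2 FC of 1.88, and 12 members were at or below the floor in every HEK293T library. Of these 12, 7 had 0 counts there, so that the filter fixed their direction. IFITM3, a membrane protein that blocks virus entry, was at 175 and 293 against 4.42, 1.67 and 3.6 CPM (log2 FC 6.18 ± 0.36, adjusted p = 7.32e-07), and IFITM1 at 28.1 and 58.4 against 0.903, 0.613 and 1.21 CPM. IFITM2 was at 141 and 202 against 17.9, 7.15 and 13.8 CPM, and reads of these near-identical neighbors may be lost or split by unique counting. OAS3, an enzyme that is activated by double-stranded RNA, was at 2.33 and 19.5 against 0, 0 and 0 CPM, so that the NPC libraries differed 8.04-fold after adding 0.1 CPM. RIGI, a sensor of viral RNA, was at 11.4 and 11.3 against 3.25, 2.76 and 3.23 CPM. SAMHD1, which hydrolyzes dNTPs, was lower in NPCs at 17.1 and 15.9 against 126, 109 and 120.5 CPM (log2 FC -2.84 ± 0.15). ADAR, an RNA editing enzyme, was not called at 305 and 318 against 342, 413 and 339.5 CPM. The summed level of the list was 1303 ± 205 CPM in NPCs and 1046 ± 18.1 CPM in HEK293T cells.

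Promoters of such genes are known to carry an interferon-stimulated response element, and the letters TTTCNNTTTC or their reverse complement GAAANNGAAA were searched in the same 250 bases. They stand in 12 of 26 promoters of the list found in the RefSeq table and in 3.02% of all promoters. Of these 12 genes 8 were higher in NPCs and 1 lower. The 3 genes shown are those with the letters and the highest CPM in NPCs among members called higher, with the match in capitals, at chr11:320861-321110, minus strand for IFITM3, chr11:313790-314039, plus strand for IFITM1 and chr12:112938224-112938473, plus strand for OAS3 (GRCh38.p14, RefSeq).
IFITM3: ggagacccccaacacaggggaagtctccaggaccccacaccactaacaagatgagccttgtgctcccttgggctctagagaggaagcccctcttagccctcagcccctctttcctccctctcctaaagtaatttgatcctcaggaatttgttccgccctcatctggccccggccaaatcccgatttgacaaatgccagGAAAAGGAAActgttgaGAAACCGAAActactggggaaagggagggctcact
IFITM1: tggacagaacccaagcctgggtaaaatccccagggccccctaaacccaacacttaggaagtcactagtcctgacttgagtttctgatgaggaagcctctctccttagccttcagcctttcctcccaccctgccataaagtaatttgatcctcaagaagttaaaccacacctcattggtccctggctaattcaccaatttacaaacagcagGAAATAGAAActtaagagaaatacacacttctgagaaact
OAS3: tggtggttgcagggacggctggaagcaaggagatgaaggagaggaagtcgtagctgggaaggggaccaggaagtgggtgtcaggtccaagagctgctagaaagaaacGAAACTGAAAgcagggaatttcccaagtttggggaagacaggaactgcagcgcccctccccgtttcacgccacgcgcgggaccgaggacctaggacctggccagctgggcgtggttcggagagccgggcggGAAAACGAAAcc
IFITM3 and OAS3 each hold 2 matches, and IFITM1 holds 1. TAP1 holds the letters as well and was lower in NPCs, at 2.28 and 8.75 against 19.6, 11.5 and 19.5 CPM, a call lost without NPC library S3, after which 1 member of the list was lower.

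Targets of p53 were compared because large T antigen binds p53. Of the list 9 of 24 tested members were higher in NPCs and 3 lower. CDKN1A, which encodes the cell cycle inhibitor p21, was at 131 and 178 against 19.2, 16.9 and 20.9 CPM (log2 FC 3.02 ± 0.17, adjusted p = 5.87e-07), and TP53I3 at 59 and 66.5 against 1.87, 1.87 and 1.85 CPM. PMAIP1 and SESN2, which also respond to other stresses, were higher in HEK293T cells at 15.5 and 18.8 against 67.2, 73.2 and 62.2 CPM and at 35 and 21.9 against 80.4, 107 and 112 CPM. Of 35 tested genes of the RB and E2F cell cycle axis, 4 were higher and 8 lower in NPCs. CDKN2A, which encodes the cell cycle inhibitor p16 and the p53 activator ARF, was at 0.571 and 1.07 against 90.6, 89.5 and 83.8 CPM (log2 FC -6.74 ± 0.25, adjusted p = 6.08e-08), and the replication licensing gene CDT1 at 44.1 and 59.1 against 156, 129 and 141 CPM, both higher in HEK293T cells. CCND1, cyclin D1, was higher in NPCs at 253 and 241 against 79.1, 89 and 82.5 CPM. MCM7, a subunit of the replicative helicase, was at 425 and 436 against 741, 631 and 686 CPM and was not called. The count of lower members in this list fell to 5 without NPC library S3.

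Of the cholesterol synthesis genes 13 of 24 tested members were higher in NPCs and 1 lower, with summed levels of 7506 ± 10.1 CPM in NPCs and 3321 ± 108 CPM in HEK293T cells. HMGCS1, at the start of the pathway, was at 1504 and 1422 against 212, 238 and 219 CPM (log2 FC 2.72 ± 0.11, adjusted p = 7.79e-08), and FDFT1, which commits to squalene, at 765 and 693 against 239, 220.4 and 238 CPM. INSIG1, a feedback inhibitor that is itself a target of the sterol response, was lower in NPCs at 153 and 125 against 289, 423 and 357 CPM. Glycolysis genes were split, with 6 of 28 higher and 9 lower. LDHA, lactate dehydrogenase, was at 939 and 793 against 2237, 2664 and 2636 CPM and ALDOA at 824 and 805 against 2009, 1890.3 and 2302 CPM, both higher in HEK293T cells, and the lactate carrier SLC16A1 was at 171 and 177 against 689.9, 819 and 766 CPM. The glucose carriers SLC2A1 and SLC2A3 were higher in NPCs at 192 and 635 against 60.7, 61.4 and 69.3 CPM and at 130.1 and 169 against 5.65, 8.51 and 8.66 CPM, and GAPDH was not called at 6198 and 5525 against 4232, 3876 and 4274 CPM. Culture medium differed between the cell types along with everything else.

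Of the 25 tested genes of serine and amino acid supply, 17 were lower in NPCs and 0 higher, with a median log2 FC of -1.42 and summed levels of 2751 ± 245 CPM in NPCs and 7626 ± 606 CPM in HEK293T cells. ATF4, the transcription factor of the amino acid response, was at 154 and 169 against 719.6, 772 and 814 CPM (log2 FC -2.25 ± 0.12, adjusted p = 4.9e-07), and SLC7A5, a carrier of large neutral amino acids, at 130.1 and 155 against 704, 742 and 898 CPM. PHGDH and PSAT1, the opening steps of serine synthesis, were at 350.1 and 304 against 707, 759 and 822 CPM and at 233 and 184 against 334, 641 and 641 CPM. ASNS, asparagine synthetase, was at 147 and 81 against 545, 599 and 625 CPM, and GLUL, glutamine synthetase, was not called at 533 and 319 against 600.2, 692 and 573 CPM. The letters TGATGNAA, the core known for elements bound by ATF4 and its C/EBP partners, stand on either strand in 3 of 19 promoters of the list found in the table and in 3.14% of all promoters. These are ASNS, MTHFD1L and CHAC1, all lower in NPCs. The promoter of ASNS, chosen as the one with the highest CPM in HEK293T cells, is shown (chr7:97872409-97872658, minus strand, GRCh38.p14, RefSeq).
ASNS: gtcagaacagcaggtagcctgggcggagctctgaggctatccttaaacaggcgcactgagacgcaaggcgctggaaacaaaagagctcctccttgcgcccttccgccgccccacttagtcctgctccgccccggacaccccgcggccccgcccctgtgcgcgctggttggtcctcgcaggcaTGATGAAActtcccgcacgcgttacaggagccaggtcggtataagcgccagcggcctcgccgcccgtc

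Ribosomal protein genes were lower in NPCs in 31 of 81 cases and higher in 2, with a median log2 FC of -0.91. Their summed level was 64792 ± 5819.9 CPM in NPCs and 118020.0 ± 8748 CPM in HEK293T cells. RPS4X, a protein of the small subunit, was at 1374 and 1199 against 5672, 4969.9 and 5064 CPM (log2 FC -2.02 ± 0.12, adjusted p = 7.58e-07), and RPS3 at 1549 and 1429 against 3492, 2994 and 3226 CPM. RPL4, of the large subunit, was at 2826 and 2656 against 4383, 4281 and 4244 CPM and was not called. RPL39L and RPS27L, paralogs of ubiquitous ribosomal proteins, were higher in NPCs at 50.4 and 38.4 against 16.6, 16.8 and 16 CPM and at 113 and 109.9 against 67.2, 49.2 and 47.9 CPM. Many of these genes have processed pseudogenes, so that unique counting can lose their reads. Without HEK293T library S16 or S17, RPS27L was not called.

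Genes of heterochromatin and the nucleolus, to which ZNF274 and its partners belong, were compared next. Of the list 3 of 39 tested members were higher in NPCs and 3 lower, with a median log2 FC of -0.08. TRIM28, the corepressor of KRAB zinc finger proteins, was at 683 and 753 against 1029, 805 and 986 CPM and was not called, and ZNF274 itself was at 23.4 and 25.4 against 14.9, 14.4 and 16.6 CPM (log2 FC 0.67 ± 0.17). CBX5, which encodes HP1 alpha, was at 731 and 815 against 135, 179 and 145 CPM, DNMT3A, a DNA methyltransferase, at 83.5 and 97.9 against 8.97, 9.47 and 8.66 CPM, and ATF7IP, a partner of SETDB1, at 165 and 155 against 51.1, 48.5 and 38.6 CPM, all higher in NPCs. The nucleolar proteins NCL and NPM1 were higher in HEK293T cells at 1160.5 and 1196 against 3305, 3194 and 3109 CPM and at 1898 and 1332 against 3353, 4748 and 4569.5 CPM. DNMT1 was at 135 and 133 against 300.2, 251 and 268 CPM, close to the FC threshold, and its call was lost under 5 of the alternatives.

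Zinc finger genes by symbol, a family of mostly repressive DNA-binding proteins, were higher in NPCs in 155 of 509 cases (30.5%) and lower in 50 (9.82%). The 239 on chromosome 19 had 84 higher (35.1%) and 14 lower (5.86%) and a median log2 FC of 0.44, whereas the 270 on other chromosomes had 71 higher (26.3%) and 36 lower (13.3%) and a median of 0.02. The chromosome 19 genes stood at 0 counts in every HEK293T library in 19 cases and in both NPC libraries in 2. On other chromosomes these cases numbered 12 and 1. ZNF521 and ZNF423, factors of neural differentiation, were at 261 and 192 against 4.99, 7.46 and 6.13 CPM and at 106 and 152 against 3.45, 3.75 and 3.67 CPM. ZNF703 was higher in HEK293T cells at 1.95 and 3.74 against 270.1, 233 and 226 CPM (log2 FC -6.42 ± 0.27), and ZNF664 was not called at 274 and 277 against 303, 323 and 313 CPM. Near-identical paralogs limit the unique counts of this family.

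**Figure D4:**
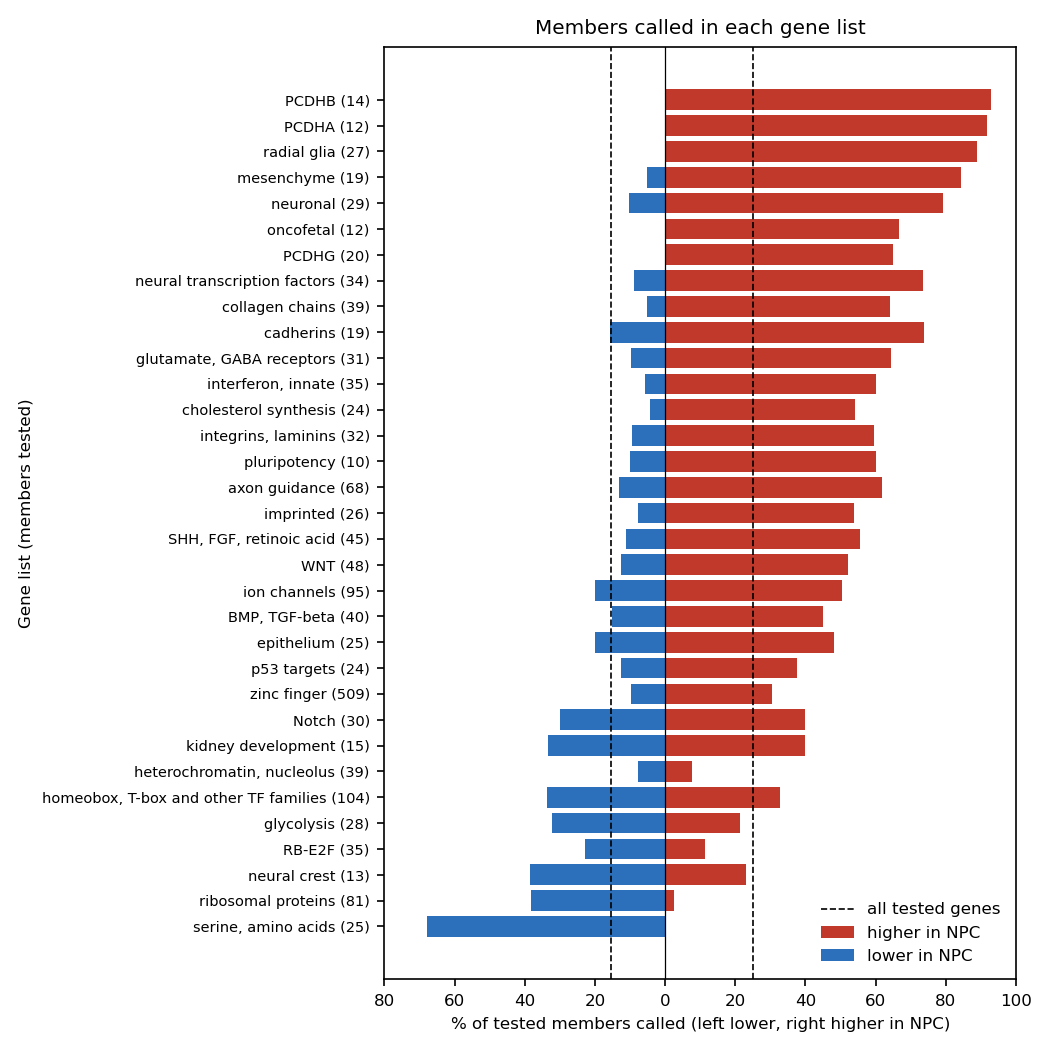
Share of the tested members of the gene lists described here, except the HOX, glial and endoderm and mesoderm lists, that were called higher (red, to the right) or lower (blue, to the left) in NPCs, in percent, with the number of tested members in parentheses. Dashed lines mark the 25.1% higher and 15.5% lower among all tested genes, and the beta protocadherins and the serine and amino acid genes stand at the ends.

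The NPC libraries also differed from each other. Among the 11040 genes with a mean of at least 5 CPM, 80 differed more than 4-fold between S3 and S5, against 16 to 34 for the 3 pairs of HEK293T libraries. SOX1 was at 7.33 and 50.6 CPM and SOX21, a further SOX factor of progenitors, at 3.52 and 48.6 CPM, both higher in S5. CALB1, a calcium-binding protein of neurons, was at 12 and 123 CPM and A2M, a protease inhibitor, at 25.8 and 161 CPM, both higher in S5. FOXJ1, a factor of ciliated cells, was at 45.7 and 7.73 CPM and GMNC, which starts the formation of multiple cilia, at 33.8 and 0.87 CPM, both higher in S3. These genes were picked from the widest differences after the values were seen, and 2 libraries give no test of them. MSX1, a homeobox factor of the dorsal midline, was at 32.9 and 4.61 against 17.4, 15.6 and 11.7 CPM and was not called, but without S3 it was lower in NPCs with a log2 FC of -1.67.

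The difference between the cell types was not the same along the genome. The median log2 FC of chromosome 18 genes was 0.48 above that of all genes over 301 genes, that of chromosome 8 was 0.34 above over 679 genes, and that of chromosome 4 was 0.28 above over 730 genes. Chromosomes 17, 16 and 19 had medians of -0.28, -0.25 and -0.21 relative to all genes. On chromosome 18 34.2% of the genes were higher in NPCs and 12.6% lower, and on chromosome 17 20.3% were higher and 20.9% lower. Leaving out 1 library at a time moved the value of chromosome 18 between 0.44 and 0.55 and that of chromosome 8 between 0.30 and 0.35. Chromosome 4 ran from 0.24 to 0.35, chromosome 17 from -0.31 to -0.26, chromosome 16 from -0.32 to -0.22 and chromosome 19 from -0.26 to -0.14. These medians were not tested. HEK293T cells are known to carry an abnormal number of chromosomes, and copy number was not measured here.

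**Figure D5:**
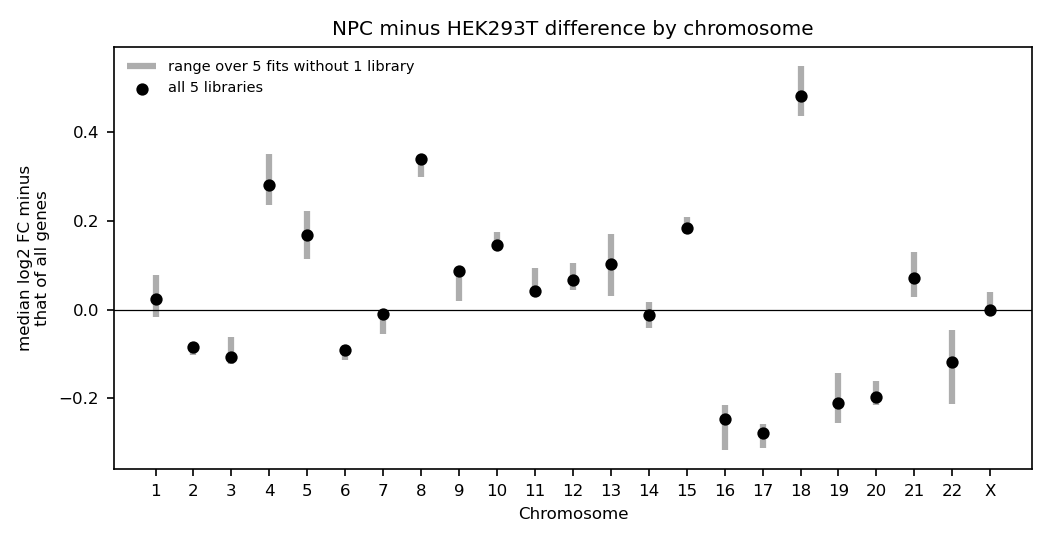
Median log2 FC (NPC minus HEK293T) of the tested genes of each chromosome, minus the median of all tested genes, for all 5 libraries (points) and as the range over the fits that leave out 1 library (bars). Chromosomes 18, 8 and 4 lie highest and chromosomes 17, 16 and 19 lowest, and the Y chromosome is left out.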

How the data were processed

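Gene counts of 2 WT NPC and 3 WT HEK293T libraries were taken from the 2 deposited count tables. The authors made poly(A)-selected stranded RNA-seq libraries, aligned their reads with HISAT2 to the hg19 genome, and used featureCounts to count the uniquely aligned ones over genes and transposable elements, with versions not given in the sources used here. The deposited values are raw counts per gene. Columns of the tables were matched to libraries by title. The tables list 20965 and 22750 gene identifiers, of which 19665 are shared, and genes in 1 table alone were not compared or set to 0. Symbols and hg19 positions came from GENCODE lifted to hg19, which held 23273 of the 24050 identifiers. XIST, Y-linked genes and some list members are not reported here.

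Genes with a total of at least 5 counts over the 5 libraries were tested in edgeR 4.0.16 (R 4.3.3) with TMM normalization over the shared genes, the quasi-likelihood test and Benjamini-Hochberg adjustment over all 19088 genes. Genes were called at an adjusted P value below 0.05 and FC above 2. The biological coefficient of variation was 0.20 with 3 residual degrees of freedom. CPM values are counts divided by the TMM-adjusted library size, ± is the SE for a log2 FC and the SD for a level, and ratios for groups with 1 to 3 counts in all carry a 95% counting interval. CPM is not corrected for gene length, so that the order of genes by CPM, used only to choose which to name or show, also reflects their length.

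The members, the gene lists and the tests were chosen with earlier results of these data known. Named genes follow a rule: in each direction the 8 called protein-coding genes with the largest FC among those above 3 counts in every library and at least 10 CPM in the higher group, the 8 with the highest CPM among those at or below 3 counts in every library of the lower group, up to 5 called members of each list in each direction by CPM, the member not called with the highest CPM, and the cell type markers. Some other members are named for contrast between libraries, for a role in a pathway or for a promoter match. On simulated counts for 18911 of these genes with 200 changed, the test recovered 76% of the genes changed 2.5-fold, 84% at 4-fold, 96% at 8-fold and 100% at 16-fold, and made 7 false calls. The changed genes were drawn from those with higher total counts than the filter asks for, so that these shares do not describe genes near the floor. They were also far fewer than the 7741 genes called here, a setting that the simulation did not cover. Alternatives were DESeq2 1.42.0, voom in limma 3.58.1, other scalings and filters, all 10 libraries, other thresholds and leaving out each library. Promoter sequences are the 250 bases before gene starts in a RefSeq table for GRCh38.p14, searched on both strands.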

Additional observations from a re-analysis of the deposited data

How the results depend on the processing

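No paired analysis was possible because the NPC and HEK293T libraries come from different cell lines and no label pairs them. Under the other tools, filters, scalings and the fit over all 10 libraries, genes higher in NPCs numbered 4379 to 5028 and lower genes 2672 to 2986, and leaving out each library in turn gave 4286 to 4519 higher and 2769 to 2933 lower. Scaling by library size alone moved the median log2 FC of all genes from 0.13 to 0.22. An FC threshold of 4 left 1099 lower genes, and no FC threshold gave 4928. List counts that moved by more than 1.5 times were few outside these thresholds. Over the fits without 1 library, lower members numbered 0 to 2 for imprinted genes, 5 to 9 for RB and E2F genes, 1 to 3 for innate genes, 5 to 8 for sonic hedgehog, FGF and retinoic acid genes, 0 to 1 for gamma protocadherins, 1 to 3 for collagens and 3 to 8 for BMP and TGF-beta genes, and higher members numbered 8 to 11 for beta protocadherins and 1 to 2 for ribosomal proteins. The median of chromosome 18 ranged from 0.44 to 0.55 and that of chromosome 8 from 0.30 to 0.35 relative to all genes. Lower imprinted genes numbered 1 with DESeq2, 0 with filterByExpr, 1 with library size alone, 1 with DESeq2's size factors and 1 at an adjusted P value below 0.01, where innate genes had 1 lower member and beta protocadherins 8 higher members. With an FC above 4, higher members numbered 5 oncofetal, 0 RB and E2F, 10 BMP and TGF-beta, 5 cholesterol, 102 zinc finger and 0 ribosomal protein genes, and lower members 0 p53 target, 2 RB and E2F, 1 innate, 1 imprinted, 2 WNT, 2 BMP and TGF-beta, 3 glycolysis, 0 cholesterol, 7 serine and amino acid, 0 silencing, 1 glutamate and GABA receptor, 5 guidance, 8 zinc finger and 2 ribosomal protein genes. With no FC threshold, lower members numbered 1 oncofetal, 19 RB and E2F, 4 innate, 4 imprinted, 15 glycolysis, 2 cholesterol, 12 silencing, 95 zinc finger and 71 ribosomal protein genes, and 13 silencing genes were higher. Over the fits without 1 library the log2 FC of LAMA4 ran from -0.42 to 2.498, that of INHBE from -6.11 to 3.605, that of MSX1 from -1.67 to 1.15 and that of PCDHGA11 from -3.11 to 2.35, in each case negative without NPC library S3 alone and highest without S5. The cause of these changes was not tested. With 2 NPC libraries, genes that differ between those libraries carry the largest errors, and genes under 3 counts in a library could not be told from absent ones at this depth.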

Other observations

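Genes listed in 1 of the 2 tables alone could not be compared, since a missing row does not show a count of 0. Of the 3085 identifiers in the HEK293T table alone, 35 had a mean of at least 10 CPM, and of the 1300 in the NPC table alone 9 did. In HEK293T libraries S15, S16 and S17 the cancer-testis genes MAGEA3 and MAGEA6, whose reads are hard to separate because the genes are near-identical copies, were at 106, 91.7 and 100.1 CPM and at 86.1, 86.4 and 93.4 CPM. GTSF1, a gene of the germline piRNA pathway, was at 50.6, 48.4 and 48.6 CPM. CDX2, a homeobox factor of the posterior body and intestine, was at 43.8, 34.4 and 41.3 CPM, PITX1, a homeobox factor of the hindlimb, at 42.4, 28.6 and 32.6 CPM and NKX2-5, a homeobox factor of the heart, at 25.3, 23.2 and 22.1 CPM. HAND1 and GATA4, also known from the heart, were at 33.6, 19.1 and 26.8 CPM and at 26.7, 28.9 and 28.6 CPM. In NPC libraries S3 and S5 MMRN1, which encodes the clotting factor binding protein multimerin 1, was at 154 and 129 CPM and IL13RA2, a decoy receptor for interleukin 13, at 93.8 and 85.8 CPM. These genes were picked after their values were seen.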
